A study of Homo sapiens with 24 samples.

Results

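The siCARLo-1 effect in HCT116 was set against the siCARLo-1 effect in PC3, gene by gene, on the log2 scale. An effect is the mean log2 level in a line's siCARLo-1 libraries minus that in its control libraries, and the difference of effects is the HCT116 effect minus the PC3 effect. Many genes for mitosis and DNA replication fell further in PC3 than in HCT116 (median difference of effects 1.76 for the mitotic entry genes). Relative to the bulk of the genes counted, the p21 gene CDKN1A rose by 2.35 in HCT116 and 2.53 in PC3. The comparison uses 12 of the 24 nCounter libraries of the series, 3 in each of 4 groups, and all 189 endogenous genes of a panel made up mostly of cell cycle genes. HCT116, a colon carcinoma line, received 50 nM of the siRNA siCARLo-1 v3 or of the control siRNA siCTRL. PC3, a prostate carcinoma line, received 100 nM of siCARLo-1 v2&4 or of siCTRL. All 4 groups were transfected with Lipofectamine RNAiMAX, and no untransfected cells are among them. CARLo-1 is a long non-coding RNA transcribed from the 8q24.21 region, and the labels name v3 and v2&4 as different siRNAs. Cell line, siRNA and dose thus change together and cannot be told apart in the difference of effects. No probe on the panel counts CARLo-1, so its knockdown was not checked in either line.

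The genes counted here drive or restrain the cell division cycle. In G1, cyclin D kinases and then cyclin E kinases phosphorylate the retinoblastoma protein, which frees E2F factors to transcribe the genes for DNA replication. In late S phase and G2, genes for mitosis follow, among them CDK1 and its B-type cyclins, and many of them carry a CHR element and CCAAT boxes close to their start. The CDK inhibitor p21, encoded by CDKN1A and induced by p53, blocks these kinases, after which RB-family proteins repress E2F genes and, in the DREAM complex, mitotic genes.

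The 250 bases before the start of 4 genes that the results below turn on are shown first (RefSeq, GRCh38.p14, each read 5′ to 3′ on the strand of its gene). CCNB2 (chr15:59104896-59105145, plus strand) and CDK1 (chr10:60778081-60778330, plus strand) are mitotic genes with a much deeper fall in PC3, E2F1 (chr20:33686386-33686635, minus strand) fell in PC3 and was not called in HCT116, and CDK7 (chr5:69234636-69234885, plus strand) moved in opposite directions. Capitals mark matches on either strand to the CHR motif TTTGAA, to CCAAT, and to the E2F-type sites TTTGGCGC and TTTCCCGC.
CCNB2: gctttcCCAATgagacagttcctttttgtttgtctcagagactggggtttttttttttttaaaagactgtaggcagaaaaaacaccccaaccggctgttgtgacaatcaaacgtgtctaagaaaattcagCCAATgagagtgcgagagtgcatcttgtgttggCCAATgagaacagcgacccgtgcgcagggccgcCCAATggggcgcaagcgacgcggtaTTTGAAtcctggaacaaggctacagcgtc
CDK1: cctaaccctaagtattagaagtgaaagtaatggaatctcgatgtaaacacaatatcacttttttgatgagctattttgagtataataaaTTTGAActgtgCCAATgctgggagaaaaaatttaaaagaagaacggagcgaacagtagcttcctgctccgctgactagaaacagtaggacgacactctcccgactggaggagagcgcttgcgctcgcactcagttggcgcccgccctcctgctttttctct
E2F1: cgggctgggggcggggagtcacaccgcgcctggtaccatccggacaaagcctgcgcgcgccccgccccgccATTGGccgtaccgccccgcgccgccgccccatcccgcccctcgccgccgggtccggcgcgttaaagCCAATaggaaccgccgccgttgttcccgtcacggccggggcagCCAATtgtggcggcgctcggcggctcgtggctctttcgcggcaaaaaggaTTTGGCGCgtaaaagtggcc
CDK7: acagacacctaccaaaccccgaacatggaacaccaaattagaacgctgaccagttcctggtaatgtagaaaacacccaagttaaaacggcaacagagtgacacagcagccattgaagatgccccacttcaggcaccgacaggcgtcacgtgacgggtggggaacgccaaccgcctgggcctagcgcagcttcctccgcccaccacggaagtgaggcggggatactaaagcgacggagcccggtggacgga
The CCNB2 stretch holds 4 CCAAT boxes and a CHR match 29 bases before the start, CDK1 a CHR match and a CCAAT box 161 and 150 bases before it, and E2F1 3 CCAAT matches and an E2F-type match 20 bases before it. CDK7 holds none of these letters in this window. A match describes the sequence only, and these 4 genes do not stand for the others. CDC25B, CDC25C and CDC7, which also fell further in PC3, hold no match. CDC23, which moved in opposite directions as CDK7 did, holds 3 CCAAT matches and 1 E2F-type match. Of the 53 genes with a higher effect in HCT116, 48 had a promoter in the RefSeq table, and of these 58.3% held CCAAT, 18.8% an E2F-type site and 12.5% a CHR motif. Among the 35 promoters found for the 42 genes with a lower effect the shares were 31.4%, 5.7% and 2.9%, and among the 71 found for the 85 genes without a called difference they were 38.0%, 8.5% and 8.5%. Over all 27305 promoters of the table they were 33.0%, 2.0% and 13.6%.

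Endogenous counts were 83850 to 136781 per HCT116 library and 216562 to 236508 per PC3 control library, and the scaled values of the PC3 siCARLo-1 libraries summed to 73568 to 82152. Between 168 and 184 genes per library lay above background, defined per library from its 8 negative probes (mean + 2 SD), which on the normalized scale was 6.22 to 19.7 counts. Values below are counts scaled by TMM over the endogenous genes (normalized counts), so an effect is relative to the bulk of the panel. The number after ± is the SE of a log2 value or the SD of a mean (n = 3 libraries in each group), and intervals are 95% confidence intervals of limma's fit. Whether replicates came from separate cultures is not stated in the labels, so p-values measure the spread between libraries, which may be technical.

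A few libraries stood apart. HCT116 siCARLo-1 v3 replicate 3 differed from replicates 1 and 2 of its group with a chi-square per degree of freedom of 56.2 and 50.2, against 2.60 between the other two, and its members of the G1/S list lay below them in 22 of 24 genes. Results that rest on it are given with and without it. HCT116 siCTRL replicates 1 and 2 differed by little more than counting noise (chi-square per degree of freedom 1.18, p = 0.05 over 177 degrees of freedom) and were kept as separate libraries. Counted as 1 library, they left 88 genes called in the difference of effects and 58 in the HCT116 effect. In the authors' series-wide table the positive control sums average 8965 in HCT116 siCTRL, 12211 in HCT116 siCARLo-1 v3, 16033 in PC3 siCTRL and 13061 in PC3 siCARLo-1 v2&4. What this marks is not stated in the labels, and the set that shares a sum and the group cannot be told apart.

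Spiked controls, which no siRNA acts on, also shifted between the groups. The ratio of positive control A to B was 2.01 ± 0.155 and 2.42 ± 0.241 in HCT116 siCTRL and siCARLo-1 v3, and 2.36 ± 0.034 and 1.97 ± 0.074 in PC3 siCTRL and siCARLo-1 v2&4. The ratio moved up in HCT116 and down in PC3, by a difference of 0.53 on the log2 scale (exact permutation test within lines, two-sided, 400 arrangements, p = 0.01, smallest possible p = 0.005). Of the 95 genes called below, 78 had a difference larger than 0.53 in size, 46 higher and 32 lower in HCT116.

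Of the 189 genes, 180 lay above background in at least 3 of the 12 libraries and were tested, and the other 9 (among them ATM, CDC14C, CDKN2C, CREB3L3, GADD45G, PRB1, RPA3 and WEE1) were not. Among the 180, 95 (52.8%) had effects that differed between the lines (limma, Benjamini-Hochberg adjusted p under 0.05). The HCT116 effect was higher in 53 (29.4%) and lower in 42 (23.3%), and 68 of the 95 differed by at least 1.5-fold. "Higher" includes a smaller fall. Whatever the HCT116 effect, the PC3 effect was called for 127 genes (70.6%), 61 up (33.9%) and 66 down (36.7%). Whatever the PC3 effect, the HCT116 effect was called for 73 (40.6%), 32 up (17.8%) and 41 down (22.8%). Without HCT116 siCARLo-1 v3 replicate 3, 115 genes were called in the difference, 60 higher and 55 lower.

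In 31 of the 95 genes both effects were called with the same sign, in 49 only the PC3 effect was called, in 9 only the HCT116 effect, and in 6 both were called with opposite signs. Among the 58 called in 1 line only, the fitted effects had the same sign in 28 and opposite signs in 30, and the sign in the other line is not established. Of all 180 genes, 30 were called down in both lines, 24 up in both and 40 in neither. Across the 180 genes the effects of the lines had a Pearson correlation of 0.61 and a Spearman correlation of 0.57, and 127 genes (70.6%) had the same sign. Genes are not independent replicates, and the 2 effects share no library.

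**Figure D1:**
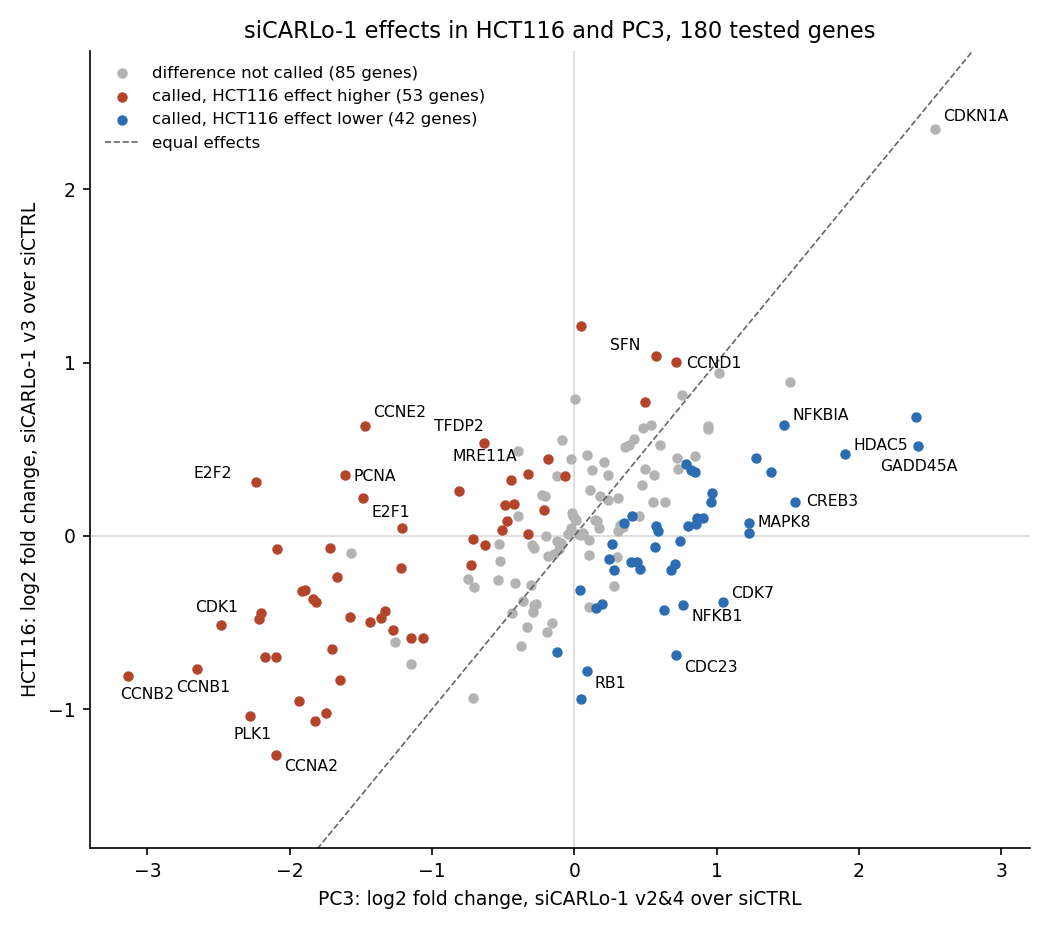
Log2 fold change over the siCTRL libraries of the same line, PC3 on the x axis and HCT116 on the y axis, 1 point for each of the 180 tested genes (means of 3 libraries). The 53 red genes have a called higher effect in HCT116, the 42 blue genes a called lower one, and the 85 grey genes no called difference. Red points on the left are genes that fell further in PC3, such as CCNB2 (-0.81 in HCT116, -3.13 in PC3), while CDKN1A lies near the line of equal effects.

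The scaling decides how the 95 divide between higher and lower. Endogenous molecules per positive control count were 10.8 ± 0.998 and 9.21 ± 0.259 in HCT116 siCTRL and siCARLo-1 v3, and 10.4 ± 0.939 and 5.96 ± 0.329 in PC3 siCTRL and siCARLo-1 v2&4. The drop was larger in PC3 by 0.58 on the log2 scale (exact permutation test, two-sided, p = 0.115). Scaled by the positive controls in place of TMM, all differences shift up, to a median of 0.67 in place of 0.06. Of 104 genes then called, 96 were higher and 8 lower in HCT116, and the PC3 effect was called up for 11 genes and down for 121. All 53 genes called higher stayed called higher, whereas of the 42 called lower 8 stayed called, 34 were no longer called and 16 of the 42 changed sign. Scaled by 7 reference genes (CLTC, GAPDH, GUSB, HPRT1, PGK1, TUBB and ARF1), 32 genes were called higher and 39 lower, 32 of the 53 and 39 of the 42. Of these 7 genes, 5 were themselves called in PC3 under TMM. TUBB (-1.33 ± 0.08, adjusted p = 1.8e-08), GUSB (-0.48) and HPRT1 (-0.42) fell, and CLTC (0.57) and ARF1 (0.17) rose. In HCT116, TUBB (-0.43) and HPRT1 (-0.27) fell and the other 5 were not called. GAPDH was counted at 29866, 31103 and 28867 in HCT116 siCTRL and 22782, 22937 and 44035 in HCT116 siCARLo-1 v3. PGK1 was counted at 6784, 6461.5 and 6568.6 and at 4585.6, 4483 and 11333 in these groups. For both genes siCARLo-1 v3 replicates 1 and 2 lay below all controls and replicate 3 above them. Which scaling gives the levels per cell was not tested, since the amount of RNA loaded is not stated in the labels, and fewer cells and less RNA per cell cannot be told apart.

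**Figure D2:**
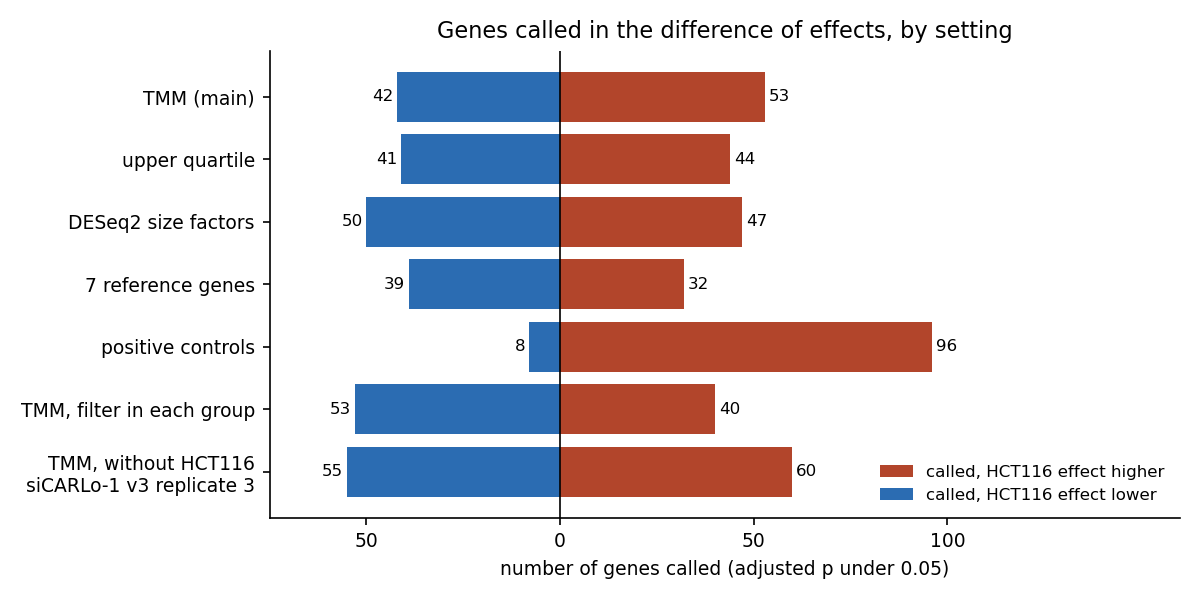
Number of genes called in the difference of effects (x axis) under each scaling, filter or set of libraries (y axis), with genes of a higher HCT116 effect to the right of 0 and of a lower one to the left. TMM gives 53 and 42, the 7 reference genes 32 and 39, and the positive controls 96 and 8.

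Most genes of mitotic entry fell further in PC3 than in HCT116. Of 9 tested members of this list, 5 were called down in HCT116 and 8 in PC3, and 8 had a higher effect in HCT116 and 0 a lower one (6 and 0 under reference gene scaling). Over all tested genes 29.4% were called higher and 23.3% lower. The median difference of the list was 1.76, against 0.06 over all tested genes. The median effect was -0.51 in HCT116 and -2.20 in PC3. CCNB2, which encodes the mitotic cyclin B2, was counted at 636, 605 and 640.5 in HCT116 siCTRL and 412, 398 and 279 in HCT116 siCARLo-1 v3. In PC3 it went from 469.9, 487 and 544 in siCTRL to 55.9, 52.4 and 59.98 in siCARLo-1 v2&4. Control and siCARLo-1 libraries did not overlap in either line, and replicate 3 was the lowest of the HCT116 siCARLo-1 libraries. The effects were -0.81 ± 0.13 and -3.13 ± 0.13, which differ by 2.33 ± 0.18 (adjusted p = 1.1e-06).

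CDK1, the kinase that starts mitosis, was counted at 1642, 1712 and 1446 in HCT116 siCTRL and 1264, 1229 and 899 in HCT116 siCARLo-1 v3. In PC3 it was counted at 4662, 4418 and 4433 in siCTRL and 884, 755 and 777 in siCARLo-1 v2&4. The PC3 control libraries held the highest levels of the 4 groups, and the PC3 siCARLo-1 libraries the lowest on average. The difference of effects was 1.97 ± 0.16 (adjusted p = 1.7e-06), from -0.51 ± 0.12 in HCT116 and -2.49 ± 0.12 in PC3. CCNB1, which encodes cyclin B1, followed the same course, from a mean of 1847 ± 84.7 to 1109.8 ± 284 in the HCT116 groups and from 1735 ± 70.6 to 277 ± 36.5 in the PC3 groups, a difference of 1.88 ± 0.22 (adjusted p = 2.0e-05). CDC25B and CDC25C encode phosphatases that activate CDK1. CDC25B was not called in HCT116 (359 and 341, adjusted p = 0.68) and fell in PC3 from 245 ± 13.05 to 57.8 ± 12.2, a difference of 2.01 ± 0.19 (adjusted p = 2.9e-06). CDC25C had a difference of 1.75 ± 0.29 (adjusted p = 0.00023), and only 1 of its 3 PC3 siCARLo-1 libraries lay above background. PLK1, a mitotic kinase, and CCNA2, which encodes cyclin A2, fell the most of the list in HCT116, by 1.04 and 1.26, and fell by 2.28 and 2.10 in PC3. Their differences of 1.24 ± 0.26 and 0.83 ± 0.23 passed the test (adjusted p = 0.0016 and 0.0083), and that of CCNA2 did not under reference gene scaling (adjusted p = 0.11). CDC20, the activator of the anaphase-promoting complex, was not called in HCT116 (-0.48 ± 0.23) and fell by 2.22 in PC3, a difference of 1.74 ± 0.32 (adjusted p = 0.00066).

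The spindle checkpoint, securin, separase and cohesin list showed the same order. Of 10 members, 8 were called down in HCT116 and 9 in PC3, and 7 had a higher effect in HCT116 and 0 a lower one (4 and 0 under reference gene scaling). The median difference was 0.74. BUB1, a checkpoint kinase, went from 464, 469 and 502 to 269.5, 267 and 209 in HCT116. In PC3 BUB1 went from 416, 377 and 383 to 109, 103 and 94.03. The groups did not overlap within a line, and the fall in PC3 was larger by 0.98 ± 0.15 (adjusted p = 0.00013). ESPL1, which encodes separase, had the largest difference of the list, 1.43 ± 0.19 (adjusted p = 4.5e-05). PTTG1, which encodes securin, fell by 1.07 in HCT116 and by 1.82 in PC3, a difference of 0.76 ± 0.12 (adjusted p = 0.00021). Its transcript is nearly identical to that of PTTG2, so which of them the probe counts is uncertain. PTTG2 is also a member of this list and enters its counts (-1.02 and -1.74, difference 0.72), so 1 transcript may be counted under both names. The smallest differences of the list were those of BUB3 (-0.13 ± 0.13, adjusted p = 0.44) and MAD1L1 (0.14 ± 0.21, adjusted p = 0.61), and neither passed the test.

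**Figure D3:**
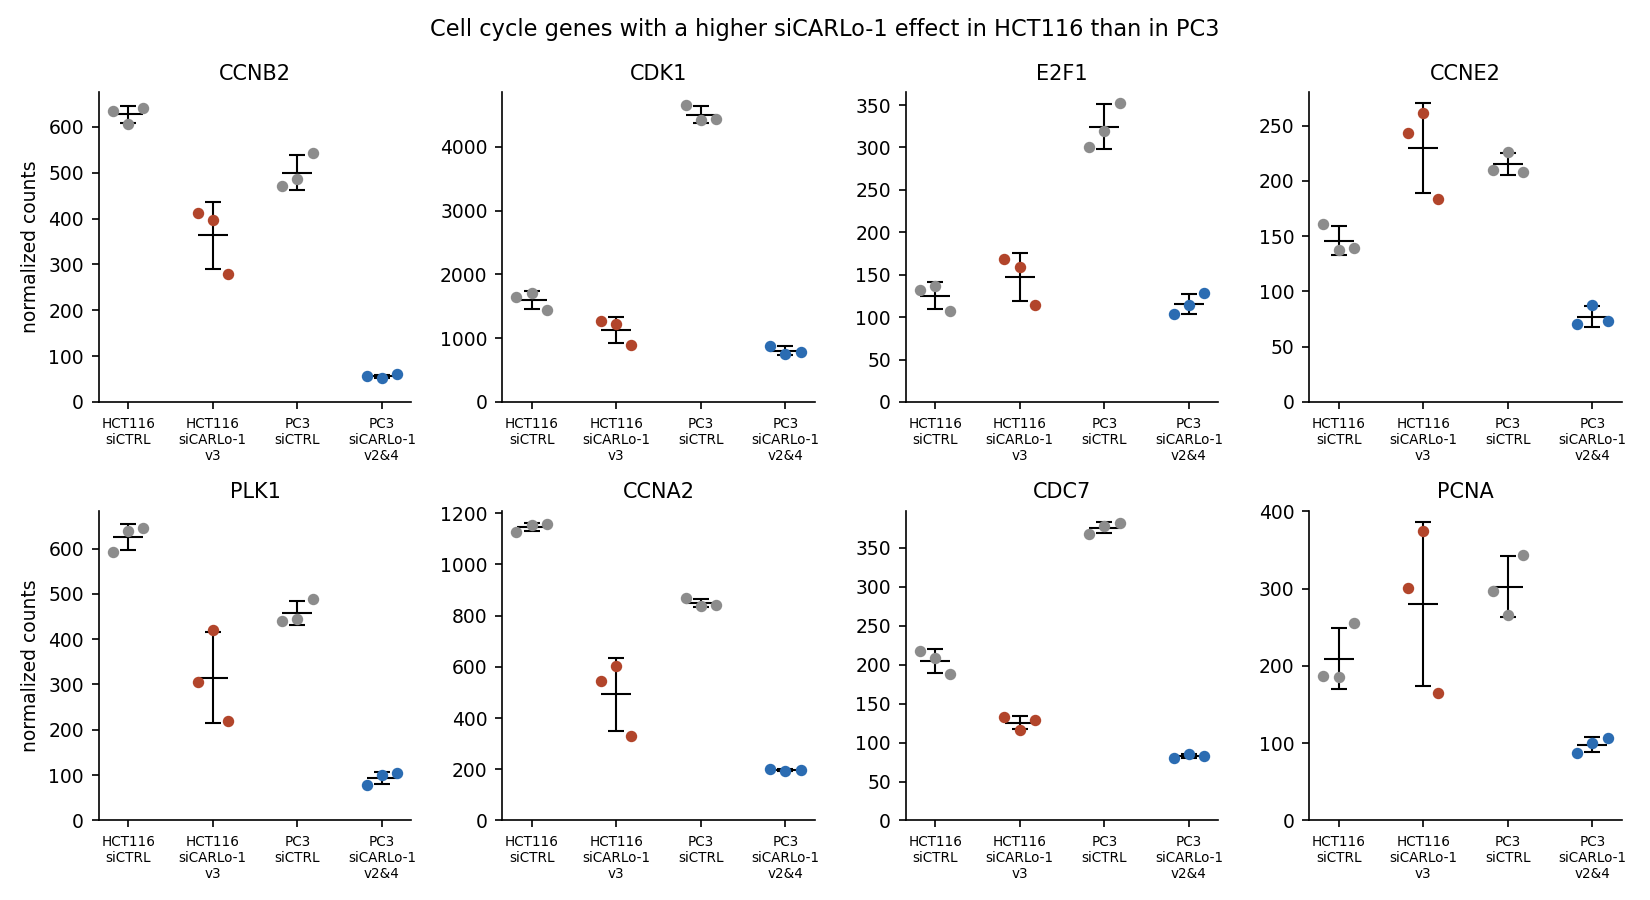
Normalized counts (y axis, from 0) of 8 proliferation genes in the 4 groups, 1 point for each library, with the mean and SD of 3 libraries as bars. CCNB2 falls from a mean of 500.2 to 56.1 in PC3 and from 627 to 363 in HCT116, whereas CCNE2 rises in HCT116 (146 to 229.6) and falls in PC3 (215 to 77.2).

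Most genes of the G1/S transition and E2F targets fell in PC3, and under TMM they moved in both directions in HCT116. Of the 24 members, 19 were called down and 3 up in PC3, with a median of -1.25, and 8 down and 4 up in HCT116, with a median of -0.21. Under positive control scaling 8 were called down and 0 up in HCT116 (median -0.39), and 21 down and 1 up in PC3. The difference was called for 17, in each case with a higher effect in HCT116 (13 under reference gene scaling, 19 under positive control scaling), and its median was 1.04. Without HCT116 siCARLo-1 v3 replicate 3 it was called for 18 under TMM, and 7 members were called up in HCT116 on that scale. E2F1, which encodes a transcription factor that drives S phase genes, was counted at 132, 137 and 107 in HCT116 siCTRL and 168, 159 and 114 in HCT116 siCARLo-1 v3. In PC3 it was counted at 301, 319.6 and 353 in siCTRL and 104, 114 and 128 in siCARLo-1 v2&4. The HCT116 groups overlapped and the PC3 groups did not. The HCT116 effect was not called (0.22 ± 0.15, adjusted p = 0.28), the PC3 effect was -1.49 ± 0.15, and they differed by 1.70 ± 0.21 (adjusted p = 3.6e-05). E2F2, which encodes a related factor, had the largest difference of all, 2.54 ± 0.57 (adjusted p = 0.0025). Its low counts, 36.8, 31.9 and 32.6 in PC3 siCTRL and 3.02, 12.3 and 6.48 in PC3 siCARLo-1 v2&4, with 1 of the last 3 libraries above background, make that size uncertain.

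PCNA encodes the clamp that holds DNA polymerase on its template. Its counts were 187, 186 and 256 in HCT116 siCTRL and 301, 374 and 165 in HCT116 siCARLo-1 v3, against 297, 266 and 344 and 87.6, 100.1 and 107 in the PC3 groups. In HCT116 replicates 1 and 2 lay above all controls and replicate 3 below them, and in PC3 all siCARLo-1 libraries lay below all controls. The difference was 1.96 ± 0.34 (adjusted p = 0.00041). Without replicate 3 the HCT116 effects of E2F1 and PCNA were called up under TMM (0.42 and 0.73), so that both then moved in opposite directions in the lines. PRIM1, a primase subunit that was in no list, also fell in PC3 (-1.91) and differed by 1.59 ± 0.17 (adjusted p = 9.8e-06). SKP2, which encodes the ligase subunit that marks p27 for destruction, fell in both lines (-0.65 and -1.70) and differed by 1.05 ± 0.15 (adjusted p = 7.7e-05). BRCA1, a break repair gene counted in the G1/S list and in the break repair list, was not called in HCT116 (-0.50, adjusted p = 0.052) and fell in PC3 (-1.43). Its difference of 0.94 ± 0.27 (adjusted p = 0.01) was not called under reference gene scaling (adjusted p = 0.088). CHEK1, a checkpoint kinase, had a difference of -0.42 ± 0.31 that was not called (adjusted p = 0.28).

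Origin licensing and firing genes, whose MCM helicase subunits also count in the G1/S list, were called down for 9 of 16 in HCT116 and for 12 of 16 in PC3, with 0 called up in either line. The difference was called for 9, each of them higher in HCT116 (6 under reference gene scaling), with a median of 0.44. MCM6, a helicase subunit, went from 712, 716 and 719.6 to 646, 621 and 479 in the HCT116 libraries, and in PC3 from 416, 441 and 481 to 131, 131 and 98.9. The HCT116 groups did not overlap, yet the effect of -0.31 missed the threshold (adjusted p = 0.068), while each PC3 siCARLo-1 library lay far below each PC3 control. The difference was 1.58 ± 0.18 (adjusted p = 1.5e-05). CDC7, the kinase that fires licensed origins, differed by 1.48 ± 0.13 (adjusted p = 1.7e-06) and MCM3 by 1.47 ± 0.17 (adjusted p = 1.9e-05). MCM4 fell in both lines (-0.59 and -1.06), with the smallest called difference of the named helicase genes (0.47 ± 0.16, adjusted p = 0.022), which was not called under reference gene scaling (adjusted p = 0.33). MCM5 and DBF4 were lowest in the list (-0.36 and -0.26) and were not called.

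**Figure D4:**
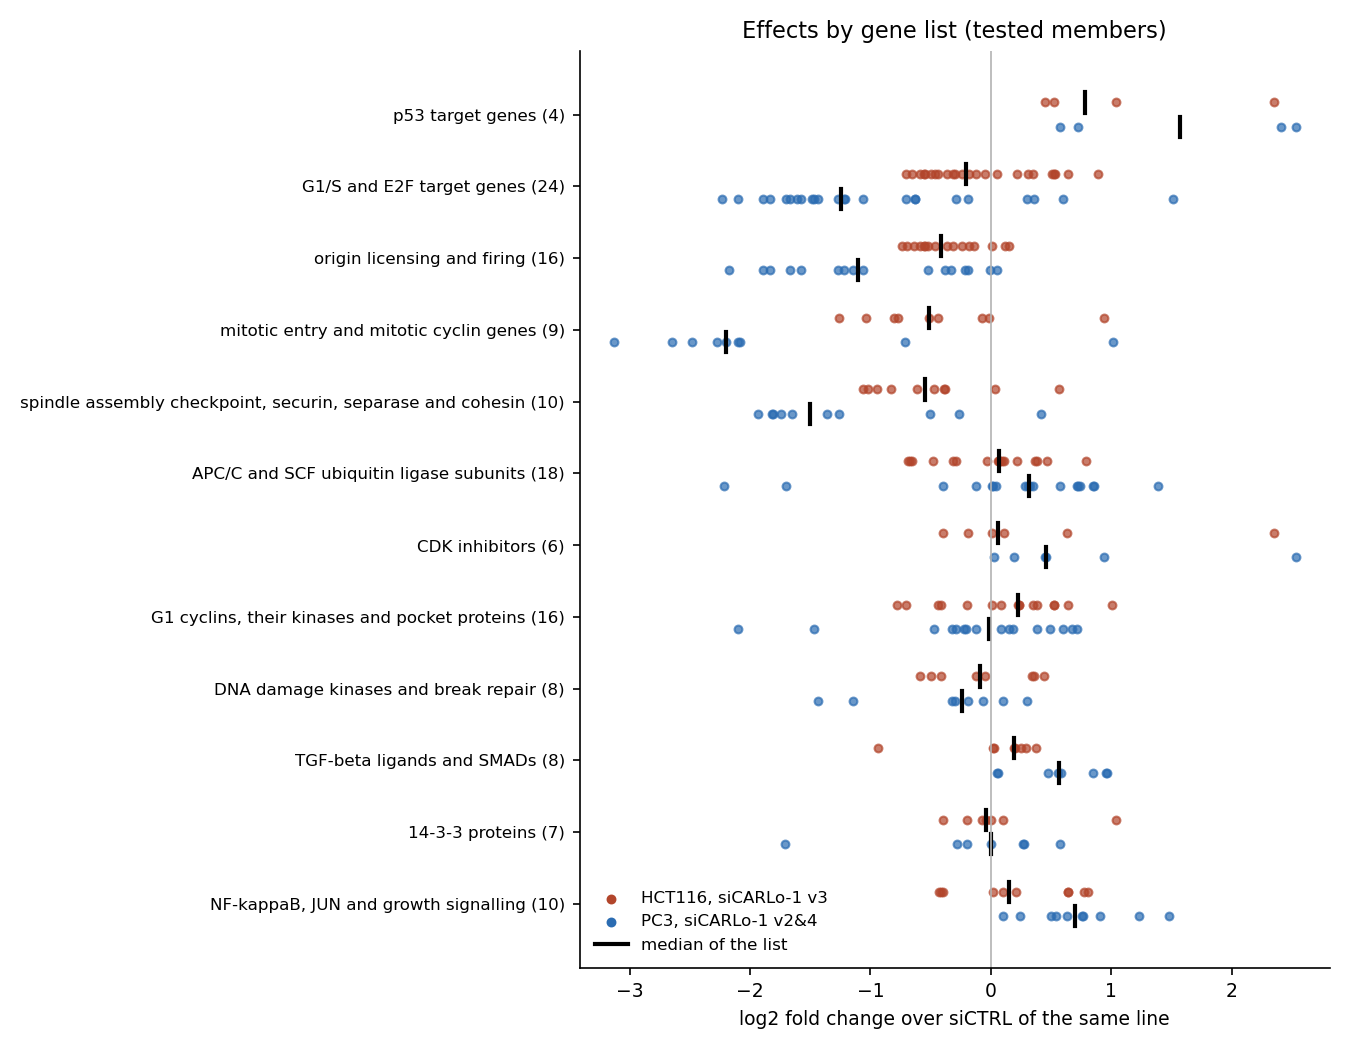
Log2 fold change over siCTRL (x axis) of the tested members of the 12 gene lists (y axis), 1 point for each gene and line, with the median of each list as a bar. Proliferation lists lie further to the left in PC3 than in HCT116 (mitotic entry medians -2.20 and -0.51), and the NF-kappaB, JUN and growth signalling list further to the right (0.70 and 0.15).

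Only 6 genes were called in both lines with opposite signs. The class was counted after the effects were known, and TFDP2 is named only because it belongs to it. CCNE2, which encodes cyclin E2 and is an E2F target, rose in HCT116 from 161, 138 and 139 to 243, 262 and 184. In PC3 it fell from 210.2, 226 and 209 to 70.98, 87.8 and 72.95. The groups did not overlap in either line, with 0.64 ± 0.14 in HCT116 (adjusted p = 0.0027), -1.47 ± 0.14 in PC3 (adjusted p = 7.0e-07) and a difference of 2.11 ± 0.19 (adjusted p = 2.9e-06). Under positive control scaling the rise in HCT116 was 0.46 and was no longer called (adjusted p = 0.099). CCNE1, which encodes cyclin E1, had no called difference (-0.08 ± 0.19, interval -0.48 to 0.33, adjusted p = 0.76). Its difference was 0.52 under positive control scaling, again not called (adjusted p = 0.14). TFDP2, a partner of E2F factors, rose by 0.54 in HCT116 and fell by 0.63 in PC3. MRE11A, a nuclease subunit of double-strand break repair, rose by 0.36 and fell by 0.33.

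The other 3 of the 6 fell in HCT116 and rose in PC3. CDK7, the catalytic subunit of the CDK-activating kinase and of the transcription factor TFIIH, was counted at 722, 734 and 669.6 in HCT116 siCTRL and 568, 562 and 500.1 in HCT116 siCARLo-1 v3. In PC3 it was counted at 257, 257 and 235 in siCTRL and 518, 538 and 491 in siCARLo-1 v2&4. No library of one group reached into the other within a line, and the siCARLo-1 levels of the 2 lines came close to each other (544 and 516). The difference was -1.43 ± 0.10 (adjusted p = 8.0e-07), from -0.38 ± 0.07 and 1.04 ± 0.07. CDC23, a subunit of the anaphase-promoting complex, went from 417, 403 and 363 to 270.4, 231 and 231 in the HCT116 libraries, and in PC3 from 325, 311 and 304 to 515, 473 and 556. Again the groups did not overlap, and the difference was -1.40 ± 0.13 (adjusted p = 2.7e-06). NFKB1, which encodes the p105 and p50 subunit of NF-kappaB, fell by 0.40 and rose by 0.77, a difference of -1.16 ± 0.18 (adjusted p = 0.00018). All 3 differences stayed called under positive control scaling (-0.81, -0.79 and -0.56), but the PC3 effect was then 0.25 for CDK7, -0.08 for CDC23 and -0.02 for NFKB1, none of them called (adjusted p = 0.16, 0.65 and 0.9). None of the 6 genes was called with opposite signs under positive control scaling, where MYC was the 1 gene so called. Under reference gene scaling 3 genes were, CCNE2 and CDC23 of the 6 and, in addition, RB1. Without HCT116 siCARLo-1 v3 replicate 3 there were 12, all 6 among them.

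All 4 p53 target genes on the panel were called up in both lines, and under positive control scaling 3 of them in HCT116 and 2, CDKN1A and GADD45A, in PC3. The list is named for a factor that can induce these genes, and whether p53 acted on them in either line was not tested. CDKN1A, which encodes p21, was counted at 307, 319.6 and 347 in HCT116 siCTRL and 1572, 1538 and 1872 in HCT116 siCARLo-1 v3. In PC3 it was counted at 110.3, 121 and 122 in siCTRL and 702, 726 and 627 in siCARLo-1 v2&4. The levels in HCT116 were higher throughout, and within each line the groups did not overlap. The rise was 2.35 ± 0.09 in HCT116 and 2.53 ± 0.09 in PC3. The difference of -0.18 ± 0.13 was not called (adjusted p = 0.26). Under TMM its interval of -0.46 to 0.10 leaves room for a rise in PC3 that is larger by up to 0.46 or smaller by up to 0.10. Without HCT116 siCARLo-1 v3 replicate 3 the difference was -0.31 and called (adjusted p = 0.041). The interval does not cover the choice of scaling. Scaled by the positive controls, CDKN1A rose by 2.17 in HCT116 and 1.74 in PC3, and the difference of 0.43 was not called (adjusted p = 0.085). MDM2, which encodes the ligase that degrades p53, had a difference of -0.28 ± 0.15 (interval -0.59 to 0.04, adjusted p = 0.13), from 0.45 ± 0.10 and 0.72 ± 0.10. It was called under upper quartile scaling (-0.35, adjusted p = 0.017). Under positive control scaling the PC3 effect of MDM2 was -0.07, and its difference was 0.33 and not called (adjusted p = 0.28).

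The other p53 targets differed in opposite directions. GADD45A, a stress gene linked to G2 arrest, was counted at 729, 675 and 659.9 in HCT116 siCTRL and 919.7, 946 and 1104 in HCT116 siCARLo-1 v3. In PC3 it rose from 773, 808 and 773 to 4040.1, 4072 and 4450.0. The control levels of the lines were alike, and each PC3 siCARLo-1 library lay far above every other library. The difference of -1.89 ± 0.11 (adjusted p = 6.4e-08) was the largest on the lower side and stayed called under positive control scaling (-1.28, adjusted p = 1.3e-05). SFN, which encodes 14-3-3 sigma, rose more in HCT116, from 582, 563 and 625 to 1176, 1239 and 1224, than in PC3, from 519, 521 and 531 to 811, 816 and 715. The groups did not overlap in either line, and the difference was 0.47 ± 0.09 (adjusted p = 0.0012). This lies under the 0.53 by which the spiked controls shifted, was not called under reference gene scaling (adjusted p = 0.15), and under positive control scaling the PC3 effect of SFN was -0.22.

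**Figure D5:**
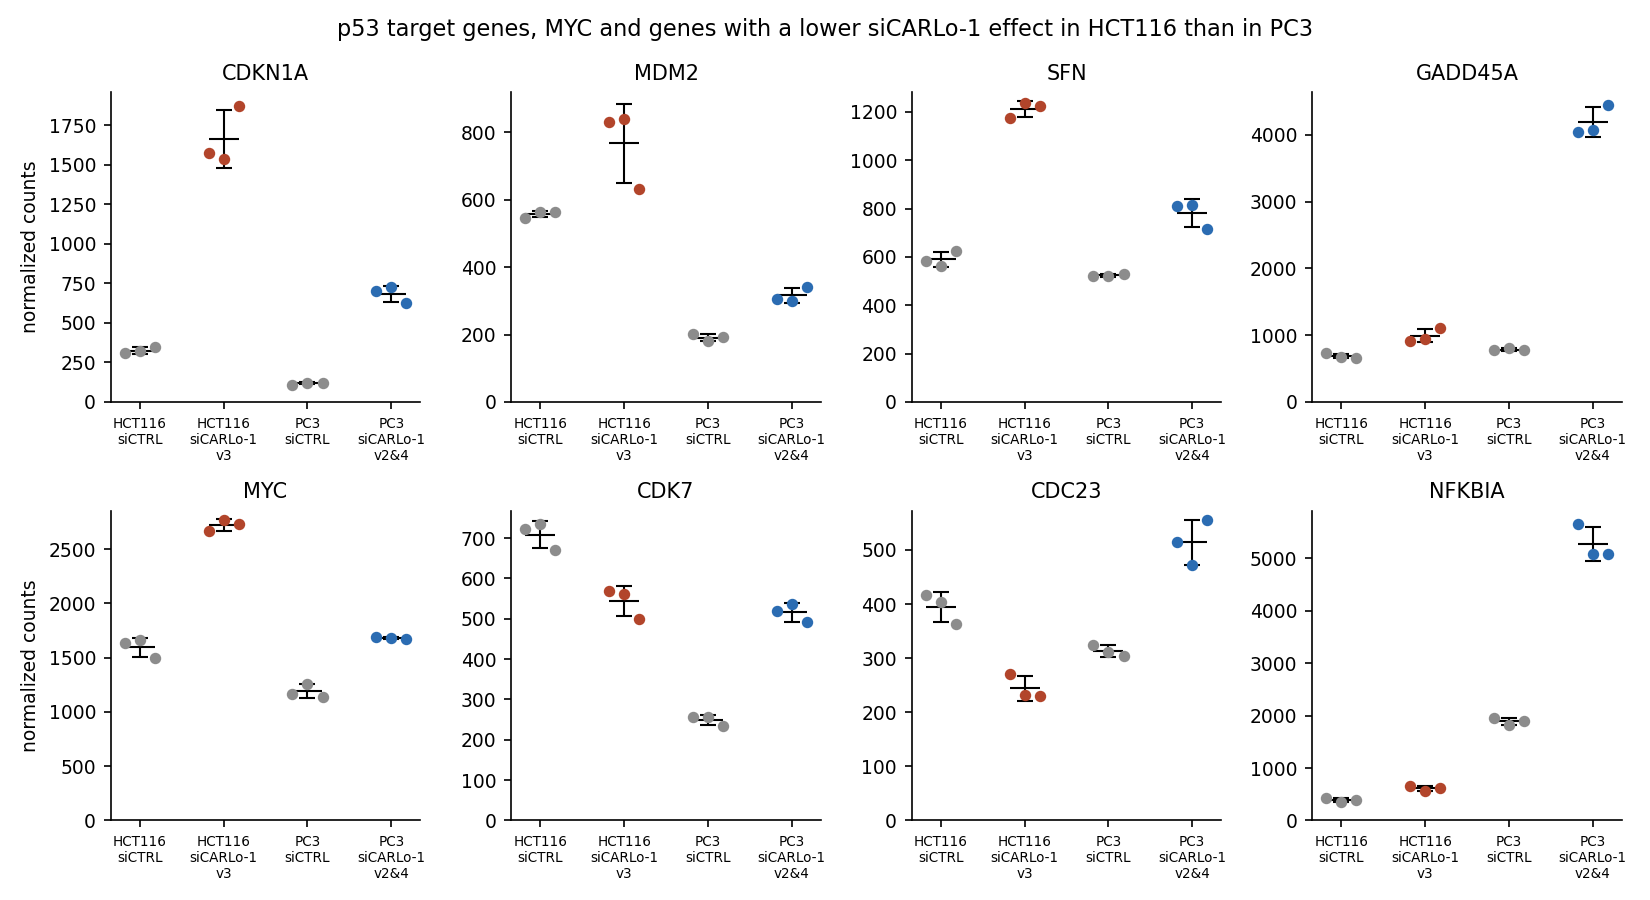
Normalized counts (y axis, from 0) of CDKN1A, MDM2, SFN, GADD45A, MYC, CDK7, CDC23 and NFKBIA in the 4 groups, 1 point for each library, with the mean and SD of 3 libraries as bars. CDKN1A rises in both lines (325 to 1660.5 in HCT116, 118 to 685 in PC3), GADD45A reaches 4187 in PC3 and 989.9 in HCT116, and CDK7 and CDC23 fall in HCT116 and rise in PC3.

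Of 6 tested CDK inhibitors, CDKN1A among them, 2 had a lower effect in HCT116 and 0 a higher one, against 23.3% and 29.4% of all tested genes. The count of lower effects depended on single libraries. It was 5 without HCT116 siCARLo-1 v3 replicate 3, 1 without PC3 siCTRL replicate 2, and 0 without HCT116 siCTRL replicate 1, HCT116 siCARLo-1 v3 replicate 1 or PC3 siCARLo-1 v2&4 replicate 1. CDKN1B, which encodes p27, had a difference of -0.65 ± 0.22 (adjusted p = 0.023), from -0.19 ± 0.15 and 0.46 ± 0.15. This call was lost when 1 library was left out, if that library was HCT116 siCTRL replicate 1, HCT116 siCARLo-1 v3 replicate 1, PC3 siCTRL replicate 2 or PC3 siCARLo-1 v2&4 replicate 1 (adjusted p = 0.06 to 0.068). CDKN2D, which encodes an INK4 inhibitor, had a difference of -0.59 ± 0.19 (adjusted p = 0.021), whose call was lost without the same 3 libraries that brought the count to 0 (adjusted p = 0.051 to 0.055). Neither of these differences was called under positive control scaling. CDKN2B, another INK4 gene, had a difference of -0.30 ± 0.38 (interval -1.13 to 0.52, adjusted p = 0.55), and -0.73 without HCT116 siCARLo-1 v3 replicate 3 (adjusted p = 0.0086).

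MYC and CCND1, growth genes that act in G1, rose in both lines and somewhat more in HCT116. MYC, which lies in the same chromosomal region as CARLo-1, was counted at 1632, 1661 and 1496 in HCT116 siCTRL and 2666, 2767 and 2735 in HCT116 siCARLo-1 v3. In PC3 it was counted at 1168, 1261 and 1141 in siCTRL and 1695, 1682 and 1671 in siCARLo-1 v2&4. The groups did not overlap within a line. Effects of 0.77 ± 0.06 and 0.50 ± 0.06 differed by 0.27 ± 0.08 (adjusted p = 0.013). Leaving out PC3 siCARLo-1 v2&4 replicate 1 or 3 ended this call (adjusted p = 0.053 and 0.062), as did the reference genes (adjusted p = 0.55). Under positive control scaling MYC rose in HCT116 (0.59) and fell in PC3 (-0.29, adjusted p = 0.049), so its direction in PC3 rests on the scaling. CCND1, which encodes cyclin D1, rose by 1.01 and 0.71, a difference of 0.29 ± 0.07 (adjusted p = 0.0054). It was not called with the reference genes (adjusted p = 0.52), and the PC3 effect was -0.08 under positive control scaling. Neither difference was called under upper quartile scaling (adjusted p = 0.3 for MYC and 0.14 for CCND1), and both are smaller than the shift of the spiked controls.

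Pocket proteins bind E2F factors. RB1, which encodes the retinoblastoma protein, fell in HCT116 from 308, 285 and 315 to 186, 149.6 and 195. In PC3 its counts were 284, 293 and 275 and 317, 289.6 and 298, and these groups overlapped. The difference was -0.87 ± 0.14 (adjusted p = 0.00021). Under positive control scaling RB1 was called down in both lines (-0.96 and -0.71), and the difference of -0.26 was not called (adjusted p = 0.31). RBL1, which encodes p107, fell in both lines and further in PC3 (-0.70 and -2.10, difference 1.40 ± 0.19, adjusted p = 5.0e-05). E2F4, which encodes a repressive E2F, was not called in HCT116 (-0.20) and rose in PC3 (0.68), a difference of -0.87 ± 0.14 (adjusted p = 0.00022). Under positive control scaling the PC3 effect of E2F4 was -0.12 and not called (adjusted p = 0.5). The list of G1 cyclins, kinases and pocket proteins also holds E2F4, E2F5, ABL1, HDAC1 and HDAC2. Of its 16 members, 5 had a higher effect in HCT116, HDAC1 and HDAC2 among them, and 3 a lower one, E2F4 and E2F5 among them. These counts were 9 and 0 under positive control scaling. Under TMM the shares are near the 29.4% and 23.3% of all tested genes.

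Of 10 members of the NF-kappaB, JUN and growth signalling list, 9 were called up in PC3 and 5 in HCT116 (2 and 3 under positive control scaling), against 33.9% and 17.8% of all tested genes. The difference was lower in HCT116 for 5, higher for 1, MYC, and not called for 4 (2 lower and 3 higher under positive control scaling), where 23.3% of all tested genes were lower and 29.4% higher. NFKBIA, which encodes an inhibitor of NF-kappaB, was counted at 424, 356 and 392 in HCT116 siCTRL and 656, 556 and 619.6 in HCT116 siCARLo-1 v3. In PC3 it rose from 1956, 1820.1 and 1897 to 5646, 5071 and 5089. The groups did not overlap, and the difference was -0.83 ± 0.11 (adjusted p = 5.7e-05), with a PC3 rise of 0.68 that remained called under positive control scaling (adjusted p = 0.00044). MAPK8, the kinase JNK1 that phosphorylates JUN, went from 298 to 302 in HCT116 (adjusted p = 0.89) and rose from 170.4 to 399.7 in PC3, a difference of -1.21 ± 0.12 (adjusted p = 5.7e-06). PIK3R1, a regulatory subunit of PI3 kinase, differed by -1.06 ± 0.27 (adjusted p = 0.0056). JUN had a difference of 0.05 ± 0.32 (interval -0.63 to 0.74, adjusted p = 0.91), from 0.81 ± 0.22 and 0.76 ± 0.22, and RELA of 0.10 ± 0.19 (adjusted p = 0.7).

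Several other regulators also had a larger rise in PC3 under TMM. HDAC5, a histone deacetylase, went from 57.1, 65.1 and 47.2 to 73.5, 69.3 and 93.4 in the HCT116 libraries, and in PC3 from 28.1, 33.4 and 32.1 to 115, 117 and 126. The groups did not overlap in either line, and the difference was -1.43 ± 0.22 (adjusted p = 0.00017). CREB3, a transcription factor anchored in the endoplasmic reticulum membrane, was not called in HCT116 (0.20, adjusted p = 0.12) and rose in PC3 from 125 to 370.4, a difference of -1.36 ± 0.13 (adjusted p = 4.8e-06). CDH1, which encodes E-cadherin, differed by -1.15 ± 0.26 (adjusted p = 0.0026), with a PC3 rise from 670.2 to 1577. FBXW7, the SCF subunit that recognises cyclin E, rose in both lines (0.37 and 1.39) and differed by -1.02 ± 0.19 (adjusted p = 0.0008). CDC14A, a phosphatase, differed by -0.86 ± 0.18 (adjusted p = 0.0018). Under positive control scaling the differences of HDAC5, CREB3 and MAPK8 stayed called (-0.83, -0.75 and -0.60). Those of CDH1, FBXW7, CDC14A, PIK3R1, E2F4, NFKBIA and TGFB3 did not. On that scale the PC3 effects of CDH1 (0.435), FBXW7 (0.60) and NFKBIA (0.68) were still called up, and TGFB3 (-0.72) was called down. The PC3 effects of CDC14A (-0.08), PIK3R1 (-0.15) and E2F4 (-0.12) were not called.

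Among subunits of the APC/C and SCF ligases, 2 of 18 had a higher effect in HCT116 (CDC20 and SKP2) and 8 a lower one, with a median of -0.35, against 29.4% higher and 23.3% lower over all tested genes. Under positive control scaling these counts were 5 and 1, without HCT116 siCARLo-1 v3 replicate 3 they were 4 and 10, and with HCT116 siCTRL replicates 1 and 2 counted as 1 library 2 and 5. Of 8 TGF-beta ligands, SMADs and their coactivators, 5 had a lower effect in HCT116 and 0 a higher one, with 5 called up in PC3 and 1 in HCT116. Over all tested genes 23.3% were lower and 29.4% higher, 33.9% were up in PC3 and 17.8% up in HCT116. With the positive controls as scale, 0 members were lower and 1 higher. On that scale 0 members were called up in either line, and 2 were called down in PC3 and 1 in HCT116. CREBBP, a coactivator of SMADs, differed by -0.76 ± 0.22 (adjusted p = 0.011). TGFB3, a ligand, had low counts of 19.05, 15.5 and 15.3 and 7.001, 6.93 and 11.05 in the HCT116 groups, none of the last above background, and 31.02, 35.5 and 37.6 and 36.2, 35.4 and 35.7 in PC3. Its difference of -0.99 ± 0.29 (adjusted p = 0.013) rests on a level below background, and was not called with all 24 libraries in the fit (adjusted p = 0.1) or under positive control scaling (-0.40, adjusted p = 0.26).

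Of 8 DNA damage kinases and break repair genes, 5 had a higher effect in HCT116 and 0 a lower one, with a median difference of 0.48, where 29.4% of all tested genes were higher and 23.3% lower. The count of higher effects was below 5 in 11 of the 12 fits that leave out 1 library. The counts were 3 and 0 without PC3 siCTRL replicate 1, 3 and 1 with all 24 libraries in the fit, and 0 and 0 under reference gene scaling. Of the 7 genes for 14-3-3 proteins, 2 had a higher and 2 a lower effect in HCT116, shares near those of all tested genes (5 and 0 under positive control scaling). The count of lower effects was 1 in 6 of the 12 fits that leave out 1 library. YWHAB, which encodes 14-3-3 beta, was not called in HCT116 (108, 107 and 100.0 against 97.1, 116 and 88.4). In PC3 it fell from 288, 277 and 297 to 96.7, 78.6 and 85.9. The HCT116 groups overlapped and the PC3 groups did not, with a difference of 1.64 ± 0.17 (adjusted p = 5.7e-06). YWHAH and YWHAZ, which encode the eta and zeta forms, had the lowest values of this list (-0.47 ± 0.12 and -0.31 ± 0.10, adjusted p = 0.0047 and 0.021). The probe named NACA, a chain of the nascent polypeptide-associated complex, had a difference of 0.15 ± 0.21 (adjusted p = 0.59).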

How the data were processed

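Transcripts of 189 endogenous genes, 6 positive and 8 negative controls were counted on the nCounter platform. The authors deposited a table for each group, and 3 of the 4 tables used here hold raw counts. For PC3 siCARLo-1 v2&4 the table holds a score instead, that is, values that the authors had already scaled by the positive controls, as its equal positive control sums show. The authors' series-wide table of scaled scores served as an alternative. The sources used here give neither instrument runs nor software, and no housekeeping class is named.

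Values of the 12 libraries were scaled with TMM (edgeR 4.0.16), and log2(value + 1) was fitted with limma 3.58.1 (4 group means, mean-variance trend, 8 residual degrees of freedom). Because 1 group is scaled, count tests (edgeR, DESeq2 1.42.0) are alternatives only. Benjamini-Hochberg adjustment of p-values ran over 180 tested genes, with calls at an adjusted p under 0.05. A fold on log2(value + 1) understates changes of low genes. The script was tested on simulated data. Of the accessions, 178 matched RefSeq and 11 did not, and MRE11A and NACAP1 are MRE11 and NACA4P there. PTTG1 and NACA have near-identical copies. Columns of no sample numbered 0. R 4.3.3 and Python 3.11.15 were used.

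Members, gene lists and tests were chosen with earlier results of these data known. Genes are named if they are among the 15 largest called differences in each direction, on a list of key cell cycle genes, or among the 2 highest and 2 lowest of a gene list. Others are marked as chosen after their values were seen. A few genes that these rules name are not reported here.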

Additional observations from a re-analysis of the deposited data

Results flagged for a closer look

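The results given here differ between the lines by a test of the difference itself, the HCT116 effect minus the PC3 effect in limma's fit. They were called for 95 genes, of which 41 are named, and values in parentheses are differences of effects on the log2 scale.

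Among mitotic genes the HCT116 effect was higher for CCNB2 (2.33), CDC25B (2.01), CDK1 (1.97), CCNB1 (1.88) and CDC25C (1.75). It was also higher for CDC20 (1.74), PLK1 (1.24), BUB1 (0.98), CCNA2 (0.83) and PTTG1 (0.76). Among S phase genes it was higher for E2F2 (2.54), CCNE2 (2.11), PCNA (1.96), E2F1 (1.70) and PRIM1 (1.59), and for MCM6 (1.58), CDC7 (1.48), MCM3 (1.47), SKP2 (1.05), BRCA1 (0.94) and MCM4 (0.47). Each of these genes was called down in PC3, and CCNE2 was the only one of them called up in HCT116. Outside these groups the effect was higher for YWHAB (1.64), SFN (0.47), CCND1 (0.29) and MYC (0.27), and the last 3 of these rose in both lines relative to the bulk of the panel. Under positive control scaling their PC3 effects were -0.22, -0.08 and -0.29, and MYC was then called down (adjusted p = 0.049).

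The HCT116 effect was lower for the stress and signalling genes GADD45A (-1.89), MAPK8 (-1.21), NFKB1 (-1.16), PIK3R1 (-1.06) and NFKBIA (-0.83). It was lower for the cell cycle regulators CDK7 (-1.43), CDC23 (-1.40), FBXW7 (-1.02), E2F4 (-0.87), RB1 (-0.87), CDC14A (-0.86) and CDKN1B (-0.65). It was lower, too, for HDAC5 (-1.43), CREB3 (-1.36), CDH1 (-1.15) and TGFB3 (-0.99), where TGFB3 lay below background in HCT116 siCARLo-1 v3. The ratio of the positive controls A to B, on which no siRNA acts, differed by 0.53 in the same contrast, and its part in the differences of single genes was not tested.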

How the results depend on the processing

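Of the 47 named genes, 15 changed the sign of their difference under the series-wide table as deposited, and no called difference of a named gene changed sign under the other alternatives run. Positive control scaling by itself shifts the median difference by 0.60, from 0.06 to 0.67. The series-wide table has near-equal positive control sums within a group, and its unequal totals between groups add a further 0.74 to each difference (median 1.40). Its values were 0.68 for CDKN1B, 0.47 for CDC14A, 0.19 for CDH1, 0.48 for E2F4, 0.33 for FBXW7, 0.14 for MAPK8, 0.18 for NFKB1, 0.52 for NFKBIA, 0.28 for PIK3R1, 0.48 for RB1 and 0.34 for TGFB3, and, for genes not called, 1.26 for CCNE1, 1.17 for CDKN1A, 1.04 for CDKN2B and 1.07 for MDM2. It called 160 genes, 159 higher and 1 lower, 107 list members and 34 genes with opposite signs. TMM on that table called 95. The count of opposite signs was 1 with positive controls, 3 with reference genes, 11 with a filter in each group and 15 with array weights. The filter in each group split the called genes into 40 higher and 53 lower. Leaving out 1 library gave 88 to 115 genes in the difference, 63 to 80 in HCT116, 116 to 135 in PC3, 5 to 12 with opposite signs, 65 to 83 list members, 0.47 to 0.61 for the A to B ratio and 0.52 to 0.65 for endogenous per positive control. Opposite signs numbered 10 without HCT116 siCARLo-1 v3 replicate 2. edgeR on rounded values called 95 genes and DESeq2 91. The cause of these changes was not tested.

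Replicate numbers did not pair the libraries: deviations of same-numbered libraries had correlations between -0.18 and -0.13 in HCT116 and between -0.12 and 0.10 in PC3. With the replicate block 89 genes were called in the difference, 65 in HCT116 and 124 in PC3. Genes near background, such as E2F2, CDC25C and TGFB3, have the least precise differences.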

Other observations

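Under TMM the HCT116 effect alone was called for 9 of the 95 genes, which are named here after their values were seen, each with its HCT116 and PC3 effect. Lower in HCT116 were, beside RB1 and TGFB3, the APC/C subunit CDC27 (-0.67 and -0.12, difference -0.55), the SCF scaffold CUL1 (-0.31 and 0.04, difference -0.35), E2F5 (-0.42 and 0.15, difference -0.57), which encodes a repressive E2F, and CDKN2D (-0.39 and 0.19, difference -0.59). Higher were the DNA damage kinase ATR (0.34 and -0.07, difference 0.41), the break repair gene RAD50 (0.44 and -0.19, difference 0.63) and CCNB3 (1.21 and 0.05, difference 1.17), which encodes a B-type cyclin. Under positive control scaling CDC27, CUL1, E2F5, CDKN2D, RB1 and TGFB3 were called down in both lines, and none of their differences was called. On that scale ATR (0.16 and -0.86) and RAD50 (0.26 and -0.965) were called in PC3 only, and CCNB3 (1.05 and -0.57) in HCT116 only. CCNB3 counts averaged 10.4 ± 1.84 in HCT116 siCTRL, 25.5 ± 4.13 in HCT116 siCARLo-1 v3, 3.81 ± 0.243 in PC3 siCTRL and 4.20 ± 1.98 in PC3 siCARLo-1 v2&4, below background in each PC3 library. CREB3L1, a relative of CREB3, was the reverse. It was counted at 4.01, 1.94 and 4.17 and 4.38, 5.54 and 8.03 in the HCT116 groups, near or below background, and rose in PC3 from a mean of 21.2 ± 4.34 to 115 ± 9.43 with no overlap, a difference of -1.71 ± 0.40 (limma adjusted p = 0.0029).

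Tested genes grouped by the motifs of the promoters shown above had the following medians, with no test. The 17 genes with an E2F-type site had a median effect of -0.07 in HCT116 and -1.27 in PC3, and the 137 without one 0.03 in each line. The 13 genes with a CHR motif had medians of -0.07 and -0.28, and the 66 with a CCAAT box -0.13 and -0.31. The 7 genes with both a CHR motif and a CCAAT box had medians of -0.48 and -2.22, and are counted in the CHR and the CCAAT group too. These 7 include mitotic genes of the lists, and the panel is mostly made of cell cycle genes.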
